A study of Mus musculus with 415 samples.

Results

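Among single mouse cells assayed for open chromatin, 95 cells (22.9% of all, exact 95% interval 18.9% to 27.2%) were chosen because they were open at a small set of regions named after Mir9-3, Bmpr1b, Fat3, Cdh2 and Cntn1. They are called members here, and the remaining 320 cells are called the other cells. The set held 18 regions in 6 windows of the genome (build mm9). A region was open in a cell when its deposited signal was above 0. A member had at least 2 of the 18 regions open, and its share of open regions within the set was at least 1.0 times its share over all 23180 regions. These values were measured in the same cells, so the difference between members and other cells at the 18 regions is a description of the choice. The windows were also picked with earlier results of these cells known.

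The series used single-cell ATAC-seq, in which the transposase Tn5 cuts accessible DNA and tags it for sequencing. R1 embryonic stem cells, a mouse line, spent 48 hours in hanging drops to form embryoid bodies, followed by 4 days with retinoic acid, given in the labels as 0.5 mM. Each sample was 1 cell captured on a Fluidigm C1 chip, and every cell had the same treatment, so there was no untreated group. The labels name no separate cultures, so the cells form 1 sample, no p-value was computed, and all intervals cover the counting of cells only.

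Retinoic acid directs embryonic stem cells in embryoid bodies towards several early fates, neural progenitors prominent among them. MicroRNA miR-9 is made from a few separate loci and is known for its role in neural progenitors, where it acts on the balance between proliferation and differentiation. Bmpr1b encodes a type I receptor for bone morphogenetic proteins, and Cdh2 encodes N-cadherin, the main classical cadherin of the neural epithelium. Fat3 encodes a large atypical cadherin involved in neuronal shape, and Cntn1 encodes contactin 1, an adhesion protein of the immunoglobulin superfamily on neurons. Open chromatin near a gene does not measure its transcript, and no transcript was measured in these cells.

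The mature miR-9 sequences are shown because the Mir9-3 window supplied 6 of the 18 regions, more than any other window. In RefSeq (build GRCm38.p6), 3 mouse loci, Mir9-1, Mir9-2 and Mir9-3, give identical mature products from both arms. Mir9-3 is thus 1 of 3 sources of the same RNA. The window was matched to Mir9-3 by chromosome only, so its distance from that locus was not checked. The seed, bases 2 to 8, is in capitals.
mmu-miR-9-5p: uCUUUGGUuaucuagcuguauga
mmu-miR-9-3p: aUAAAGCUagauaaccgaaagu
The hairpins differ between the loci outside those products. In the hairpins of Mir9-3 and Mir9-1 below, capitals mark both mature products.
Mir9-3 hairpin: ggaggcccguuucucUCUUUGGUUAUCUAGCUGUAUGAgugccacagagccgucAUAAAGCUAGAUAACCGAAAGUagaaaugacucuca
Mir9-1 hairpin: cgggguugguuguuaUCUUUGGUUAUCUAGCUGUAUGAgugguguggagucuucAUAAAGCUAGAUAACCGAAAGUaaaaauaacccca

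The windows are named by chromosome: each of 5 windows lies on the chromosome that carries exactly 1 of the 5 marker genes in the RefSeq table, and the window on chromosome 10 has no marker. The deposited table names no genes and no annotation of mm9 was used here. Whether a region is exonic, intronic or upstream is therefore not stated, and other regions are named by position only. For the same reason the members could not be checked against progenitor markers beyond the 5 that chose them, so they are named by their open loci and not as a cell type.

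Depth overlapped widely between the groups and was somewhat higher in members. They had a median of 4375 open regions (lowest 1178, highest 12267), and the other cells had 3768.5 (756 to 12139). The quartiles lay at 2593.5 to 6578.5 in members and 2538.5 to 5409.75 in the other cells. Signal came to a median of 5057 fragments per member and 4436 per other cell, taking the most frequent value as 1 read pair. Members also had slightly more fragments per open region, with a median of 1.25 against 1.19. Because depth differed, comparisons below use a depth-scaled ratio: open cells over the number expected from each cell's depth and each region's frequency, in members, divided by the same quotient in the other cells.

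At the set, members had a median of 5 regions open (2 to 15) and the other cells 1 (0 to 9). A member had open regions in a median of 4 of the 6 windows, with 4 members open in all 6 and 2 members in a single window. Members were not sharply set apart from the rest by the rule. The median member's set share was 1.49 times its own overall share (1.01 to 4.55), and 48 of the 95 members lay under 1.5 times. Just inside the threshold lay cells at 1.007, 1.017 and 1.025 times, and just outside lay cells at 0.997, 0.990 and 0.982 times. A further 98 cells had at least 2 set regions open but were left out, because their set share was below their overall share.

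The Mir9-3 window spans 34.6 kb (chr7:86642573-86677154) and was the most widely open. At least 1 of its 6 regions was open in 87 of 95 members (91.6%, 84.1% to 96.3%) and in 38.8% of the other cells (33.4% to 44.3%). Its regions differed in how much they separated the cells. The region chr7:86649603-86651122, 1519 bp wide, was open in 55.8% of members and also in 18.8% of the other cells, a depth-scaled ratio of 2.59. The region chr7:86670572-86671434 was open in 54.7% and 11.9%, a ratio of 3.99. The largest ratio in the window, 5.57, belonged to chr7:86676579-86677154, open in 32.6% of members and 5.0% of the other cells. The smallest, 2.04, belonged to chr7:86643931-86644798, where the intervals of the 2 groups came closest in this window.

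The unnamed window on chromosome 10 (chr10:84148464-84174362, 25.9 kb, 4 regions) was open in 68 members (71.6%) and 85 other cells (26.6%). Its region chr10:84170174-84170824 had the lowest share among members of all 18, 17.9% against 6.88% in the other cells, and a ratio of 2.22. The Bmpr1b window (chr3:141535229-141599998, 64.8 kb) was open in 63 members (66.3%) and 40 other cells (12.5%), with region ratios of 5.33, 5.74 and 6.57. The Fat3 window (chr9:16203375-16289833, 86.5 kb) was also open in 63 members and in 41 other cells (12.8%), with ratios of 6.41, 5.33 and 5.96. The Bmpr1b and Fat3 windows thus had nearly equal shares of open cells in both groups, with intervals in members of 55.9% to 75.7% for each.

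The Cdh2 and Cntn1 windows were 1 region each and had the largest ratios. The Cdh2 region chr18:16828530-16828957 was open in 26 members (27.4%, 18.7% to 37.5%) and 8 other cells (2.50%, 1.09% to 4.87%), a ratio of 9.31. The Cntn1 region chr15:91930260-91930670 was open in 26 members and 10 other cells (3.13%, 1.51% to 5.67%), a ratio of 7.45. Both had no signal in most members.

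**Figure D1:**
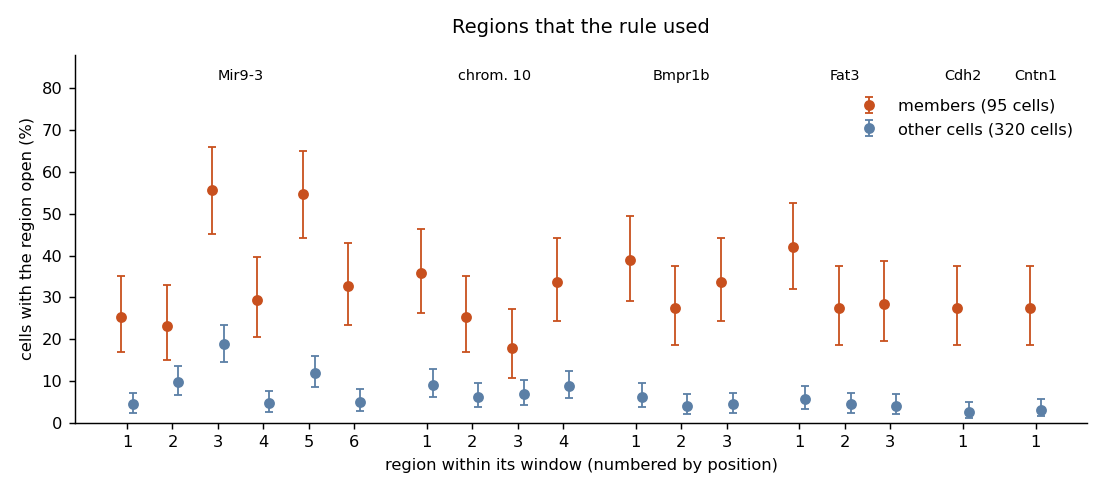
Share of cells with each of the 18 set regions open, in percent, for the 95 members and the 320 other cells; points are shares and bars exact 95% intervals. The regions chose the members, so the gap is a description; the 2 most open Mir9-3 regions reach 55.8% and 54.7% of members.

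To read each window in cells it had not chosen, the rule was applied to the other 5 windows and the left-out window was counted. All 6 windows were open more often in cells chosen without them than in the remaining cells, by depth-scaled ratios of 1.60 to 6.12. The Cdh2 region was open in 24 of the chosen cells (23.8%, 15.9% to 33.3%) and in 10 of the rest (3.18%, 1.54% to 5.78%), a ratio of 6.12 (2.82 to 14.3 by counting error). The Cntn1 region followed with 22.8% against 4.14% and a ratio of 4.61 (2.24 to 9.90). For both regions the intervals of the shares were well apart.

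The Fat3 window was open in 52.4% of the cells chosen without it and 16.03% of the rest, a ratio of 2.82 (1.88 to 4.22). The Bmpr1b window was open in 50.98% and 16.3%, a ratio of 2.57 (1.71 to 3.86). In both of these windows, each of the 3 regions was also higher on its own, by at least 2-fold with intervals that did not overlap. Smaller ratios were seen at the more widely open windows. The ratios are not on a like scale, because a window open in many of the remaining cells leaves less room for a large ratio. The windows also differ in their number of regions, and the chosen cells differ. Those chosen without Mir9-3 included 68 members, and those chosen without Cdh2 included 93. Mir9-3 was open in 82.9% of 76 cells chosen without it and 43.7% of the rest, a ratio of 1.64 (1.20 to 2.22), and 3 of its 6 regions were higher on their own. The chromosome 10 window was open in 58.5% and 30.5%, a ratio of 1.60 (1.13 to 2.25), with 1 of its 4 regions higher.

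**Figure D2:**
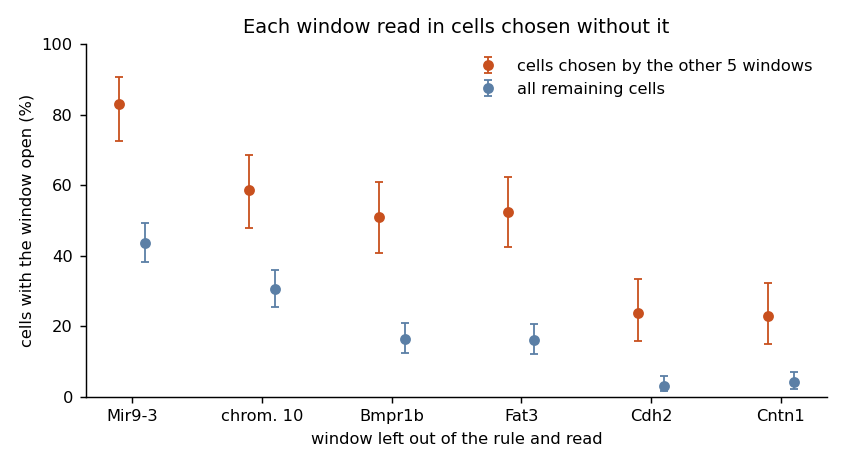
Share of cells with a window open, in percent, in cells chosen by the other 5 windows and in all remaining cells; points are shares and bars exact 95% intervals. All 6 pairs of intervals are apart. The depth-scaled ratio is largest at Cdh2, with 23.8% against 3.18%, and smallest at chromosome 10, with 58.5% against 30.5%. The windows were picked with earlier results of these cells known, so the gaps are a description.

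The windows were also paired over all cells without using membership. All 15 pairs of windows, each on different chromosomes, were open together in more cells than depth alone gave, by 1.18 to 2.16 times with a median of 1.41. Because the windows were picked with earlier results of these cells known, this excess is a description. Pairs of other regions were not compared. Bmpr1b and Cntn1 were both open in 26 cells where 12.03 were expected, and Fat3 and Cdh2 in 24 where 11.5 were expected. Bmpr1b and Fat3 were both open in 53 cells against 33.5 expected. The lowest excess was that of Mir9-3 with chromosome 10, at 1.18 times. The cells' titles carry running numbers, whose meaning the labels do not give. Divided at the middle of these numbers, 14 of the 15 pairs were above 1 in the lower-numbered cells and 14 in the higher-numbered cells. The exceptions were chromosome 10 with Cntn1 among the lower numbers (0.963) and Cdh2 with Cntn1, which rests on 9 cells, in the higher ones (0.931).

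Regions next to the windows, which the rule did not use, were higher in members in a few places. A region was called higher when its depth-scaled ratio was at least 2 and the exact intervals of observed over expected did not overlap, and lower when the ratio was at most 0.5 under the same condition. Within 100 kb of a window, 3 of 16 regions were higher and 0 were lower, beside 5.26% higher and 2.01% lower over the chromosomes without a window. Those 3, named after their values were seen, lay beside the Cdh2 and Fat3 windows. The region chr18:16871876-16872384, 42.9 kb from the Cdh2 region, was open in 24.2% of members and 4.69% of the other cells, a ratio of 4.40. Nearer to the Cdh2 region, chr18:16861969-16862576 was open in 16.8% and 5.0%, a ratio of 2.86. On chromosome 9, chr9:16157482-16158195 lay 45.2 kb from the Fat3 window and was open in 25.3% and 7.19%, a ratio of 3.0.

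The remaining neighbours within 100 kb were not called, with ratios from 0.37 to 1.69. The wide region chr7:86610668-86611826, 30.7 kb from the Mir9-3 window, was open in 51.6% of members and 46.9% of the other cells, a ratio of 0.99. The region chr9:16304153-16306969, 2816 bp wide and 14.3 kb from the Fat3 window, was open in 42.1% and 33.1%, a ratio of 1.12. The difference at the windows therefore did not extend to every neighbour. From 100 to 500 kb away 6 of 54 regions were higher and 3 lower. From 500 kb to 2 Mb 7 (4.73%) were higher and 6 lower. Beyond 2 Mb on the same chromosomes 5.15% of 6528 were higher, near the 5.26% of the chromosomes without a window.

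On the 14 chromosomes without a window, members differed from the other cells at many regions. Of 16416 regions there, 863 (5.26%) were higher and 330 (2.01%) were lower in members. The median ratio over all of these regions was 0.96. Higher regions had a median ratio of 2.78, up to 6.94, and were open in a median of 24.2% of members and 7.19% of the other cells. Lower regions had a median ratio of 0.22, and were open in a median of 3.16% of members and 12.8% of the other cells. Higher regions made up 72.3% of these calls, 88.9% on shares without depth scaling and 87.7% after each cell was thinned to 1500 open regions, which left 1.35% of regions higher and 0.189% lower. With a 3-fold difference required, higher regions made up 55.97% of the calls.

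The 2 regions with the largest ratios both lay on chromosome 13. The region chr13:83871829-83872134 was open in 29 members (30.5%, 21.5% to 40.8%) and 12 other cells (3.75%, 1.95% to 6.46%), a ratio of 6.94 (3.43 to 14.9 by counting error). It was open in 14 members and 8 other cells with lower title numbers, and in 15 and 4 with higher numbers. The region chr13:78716125-78716502 was open in 28 members (29.5%) and 12 other cells, a ratio of 6.70 (3.30 to 14.5). Both were higher in members in either range of title numbers, with ratios of 5.05 and 10.7 at the former and 8.17 and 5.24 at the latter. Because both were picked by their ratio over the 2 ranges together, these values are a description.

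The next 8 regions by ratio came from chromosomes 14, 1, 13, 19, 2, 6 and 4, and each was open in 22 to 30 members and 10 to 14 other cells. On chromosome 14, chr14:118162214-118162783 was open in 24.2% of members and 3.13% of the other cells, a ratio of 6.59. On chromosome 1, chr1:159383219-159383696 was open in 23.2% and 3.13%, a ratio of 6.30. Chromosome 13 appeared again with chr13:8112210-8112691, which had a ratio of 6.18, and chr19:33123282-33124037 had 6.16. The remaining 4 were chr2:44077750-44078273 (5.96), chr6:87495361-87495996 (5.95), chr4:8156876-8157450 (5.73) and chr4:153877245-153877592 (5.73). The counting intervals of all 10 ratios overlap, so their order is not established, and ratios picked as the largest of many lean high.

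The higher regions open in most members were wider and less exclusive. The region chr12:104552009-104553480, 1471 bp wide, was open in 52 members (54.7%, 44.2% to 64.98%) and 57 other cells (17.8%, 13.8% to 22.5%), a ratio of 2.67. The region chr4:148629130-148630147 was open in 50 members and 53 other cells, a ratio of 2.76, and chr14:118629423-118630411 in 50 and 66, a ratio of 2.23. The other 2 were chr4:7924210-7925018 (49 members, 52 other cells, ratio 2.75) and chr17:10527902-10528905 (49 and 58, ratio 2.47). These shares are close to those of the most open Mir9-3 region.

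Some higher regions lay in stretches, each within 50 kb of the next. There were 70 such stretches, which held 16.9% of the 863 higher regions. Regions lie densely in the table, and 75.9% of all regions on these chromosomes had another within 50 kb. That share counts neighbours of any kind, so it is not a background for the 16.9%. Whether the higher regions cluster was not tested. The stretch with most higher regions was chr4:153845899-153974456, where 4 of 6 regions were higher over 128.6 kb, with ratios from 2.13 to 5.73. At least 1 of the 4 was open in 59 members (62.1%) and 81 other cells (25.3%). Of the 4 stretches with 3 higher regions, the shortest was chr13:83871829-83881591, which begins with the region of the largest ratio. It held 3 higher regions among 4 within 9.76 kb, and at least 1 of the 3 was open in 57 members (60%, 49.4% to 69.9%) and 62 other cells (19.4%, 15.2% to 24.1%). In chr5:101950128-101967501 all 3 regions were higher, and at least 1 was open in 62.1% of members and 24.4% of the other cells. Counted over their higher regions only, these stretches were open in about as many members as the Bmpr1b and Fat3 windows. They were open in more of the other cells, 19.4% to 25.3%, beside 12.5% for Bmpr1b and 12.8% for Fat3.

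Some regions open elsewhere in the culture had signal in few or no members. A region without signal in a cell can be undetected and need not be closed. Of the lower regions open in at least 1 member, chr5:33353893-33354666 had the smallest ratio. It was open in 1 member (1.05%, 0.0266% to 5.73%) and 41 other cells (12.8%, 9.35% to 16.98%), a ratio of 0.0700 (0.00173 to 0.413 by counting error). The regions chr13:56124608-56125044, chr13:6990874-6992077, chr5:93432290-93432622 and chr19:11889409-11889696 were each open in 1 member and in 36 to 39 other cells. When open meant at least 1 read pair, these 5 ratios were larger, from 0.233 to 0.447, the last at chr5:33353893-33354666 and outside its interval. Ratios picked as the smallest of many lean low. A further 8 lower regions were open in 0 of 95 members and in 31 to 38 other cells. A limit of 3 counts over the members, used here for a count of 0, allows a share of up to 3.16%. Computed against that limit, these 8 were at least 3.61-fold to 4.42-fold lower.

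**Figure D3:**
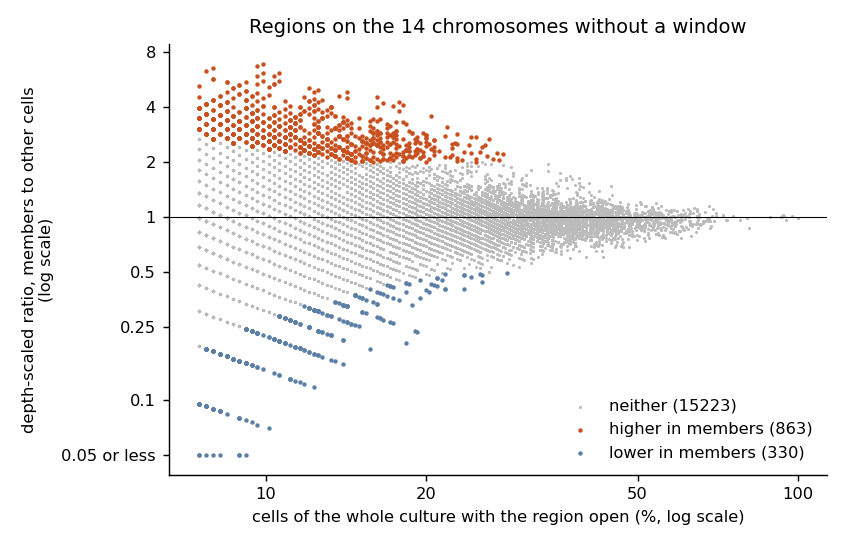
Depth-scaled ratio of members to other cells (log scale) against the share of all cells with the region open (log scale, in percent), 1 point per region on the 14 chromosomes without a window; ratios under 0.05 are drawn at 0.05. The 863 higher and 330 lower regions are coloured, and nearly all of them are open in under 25% of cells.

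Higher and lower regions were narrower and less often open than the rest. Higher regions had a median width of 628 bp and were open in a median of 11.1% of all cells, lower ones 586.5 bp and 10.8%, and all regions tested 764 bp and 14.5%. The call rule itself keeps out widely open regions: among regions open in at least 25% of cells 0.248% were higher, and among those open in 10% to 15% of cells 8.44% were. Within that last class the median width was 643 bp for higher regions and 679.5 bp for all.

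The share of regions called higher differed between chromosomes. These shares were not adjusted for how often each chromosome's regions are open, on which the call rule depends, and carry no intervals. Whether they differ beyond that was not tested. Chromosome 13 had 78 of 1028 regions higher (7.59%) and 11 lower (1.07%), and chromosome 14 had 7.12% higher. Chromosome X had 15 of 499 higher (3.01%) and 2 lower, and chromosome 19 had 3.32% higher. Summed over whole chromosomes, members held 1.09 times as many open regions on chromosome 13 as depth and the other cells gave. The other 13 chromosomes ran from 0.967 on chromosome 17 to 1.04 on chromosome 14. Sums over many regions, most of them not called, lie near 1 once depth is scaled. They are therefore not comparable with single regions picked for their ratios.

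The comparison was also made within each range of title numbers. New lists of regions were called in the cells with lower title numbers (46 members) and read in those with higher numbers (49 members), and the reverse. In the lower numbers 609 regions (3.71%) were called higher, with a median ratio of 4.11, and in the higher numbers their median ratio was 2.02, with 94.4% of them above 1. In the reverse direction 1.63% of regions were called, and their median ratio in the lower numbers was 3.18, with 98.1% above 1. Over all 16416 regions 46.8% and 47.7% were above 1. The higher regions shared by both calls made up 21.2% of the former set and 48.1% of the latter.

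Lower lists were read in the same way. Of the regions called lower in the lower numbers (1.51%), 78.6% were below 1 in the higher numbers, with a median ratio of 0.63. Of 72 called in the higher numbers (0.439%), 65.3% were below 1 in the lower ones, with a median of 0.86. Over all 16416 regions the median ratio was 0.961 in the higher numbers, with 46.8% above 1, and 0.969 in the lower ones, with 47.7% above 1. The 2 sets shared 2 regions, 0.806% of the former and 2.78% of the latter. Over all regions, 0.439% and 1.51% were called lower in the opposite range. So few shared regions do not show that the lower calls repeated. Members made up 27.9%, 16.3%, 27.9% and 19.4% of 4 consecutive sets of title numbers, with overlapping intervals. Similar shares of members do not show that the other cells were alike across the title numbers.

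Each cell was scored by its open regions over expected ones at the regions called higher in the range of title numbers it did not belong to. Members had a median score of 1.78 (0.487 to 3.88) and the other cells 0.588 (0 to 3.10). The 2 ranges of title numbers were scored on different lists. Among the lower numbers the medians were 1.79 in members and 0.378 in the other cells, and among the higher numbers 1.72 and 0.744. At the regions called lower in the opposite range, the medians were 0.607 in members and 0.828 in the other cells. There the lower numbers had 0.828 and 0.952, and the higher numbers 0.412 and 0.516. The score at higher regions was above 1 in 82 members (86.3%, 77.7% to 92.5%) and in 75 other cells (23.4%, 18.9% to 28.5%). It lay above the median member's in 17 other cells (5.31%), and 2 members lay below the median of the other cells. The groups therefore overlapped, with most of each on its own side of 1.

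Median scores were higher where the set share was higher. Members with a set share of 1 to 1.5 times their own had a median score of 1.56, those at 1.5 to 2 times 1.97, and those at 2 times or more 2.02. Depth ran the other way, with medians of 5480, 4867 and 2581.5 open regions. The 98 cells with at least 2 set regions open but a share below their own had a median score of 0.808 at a median of 5818 open regions. The cells with no set region open had a median of 0.402, yet the highest among them reached 3.10. By number of open windows, the median score was 0.402, 0.633, 0.849, 1.30, 1.72 and 1.91 for 0 to 5 windows and 1.78 for the 5 cells with 6, while median depth went from 2783.5 open regions at 0 windows to 10524 at 6. The part of depth in that order was not tested.

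**Figure D4:**
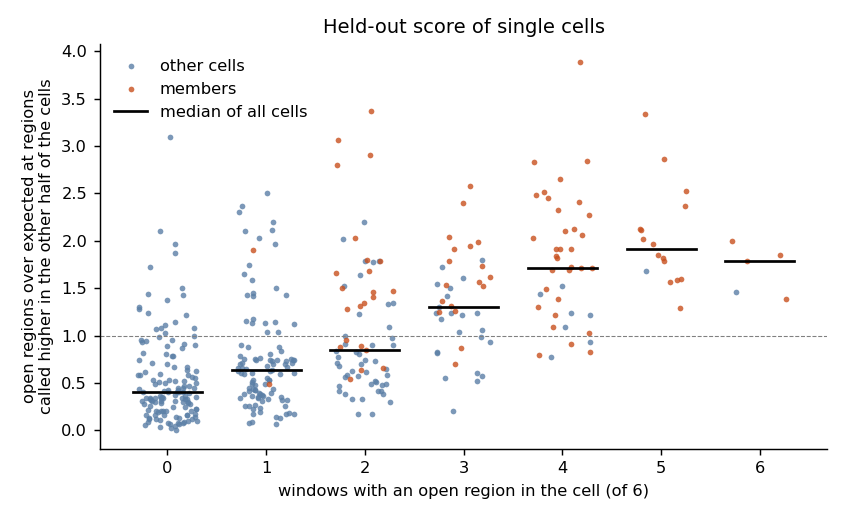
Open regions over expected ones in each cell, at regions called higher in members among cells of the other range of title numbers, against the number of windows open in the cell; points are cells, spread sideways for display, and black lines are medians of all cells. Medians go from 0.402 at 0 windows to 1.91 at 5 windows, and cells at 0 windows reach up to 3.10.

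Cells were also grouped into 3 clusters using the 14 chromosomes without a window only, a number taken from the study. Clusters are numbered by size. Cluster 3, with 110 cells, held 68 of the 95 members (71.6%, 61.4% to 80.4%) and 13.2% of the other cells. Cluster 1, with 46.6% of the clustered cells, held 19 members, and cluster 2, with 26.8%, held 8. Most cells of cluster 2 had lower title numbers, so the make-up of the other cells differed between the 2 ranges. Whether the numbers mark a batch is not known. Cluster 3 was deepest, with a median of 4750.5 open regions per cell, beside 3529 for cluster 1 and 3770 for cluster 2. Members thus fell mostly into 1 cluster that was made without the windows or their chromosomes.

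All 6 windows were open most often in cluster 3. The Cdh2 region was open in 28.2% of cluster 3, 0.518% of cluster 1 and 1.80% of cluster 2. The Bmpr1b window was open in 56.4%, 15.0% and 10.8% of these clusters, and Fat3 in 56.4%, 16.1% and 9.91%. Mir9-3 was the least restricted, at 83.6%, 41.5% and 35.1%, which scaled by depth was 1.45, 0.883 and 0.686 of the expected number of cells.

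**Figure D5:**
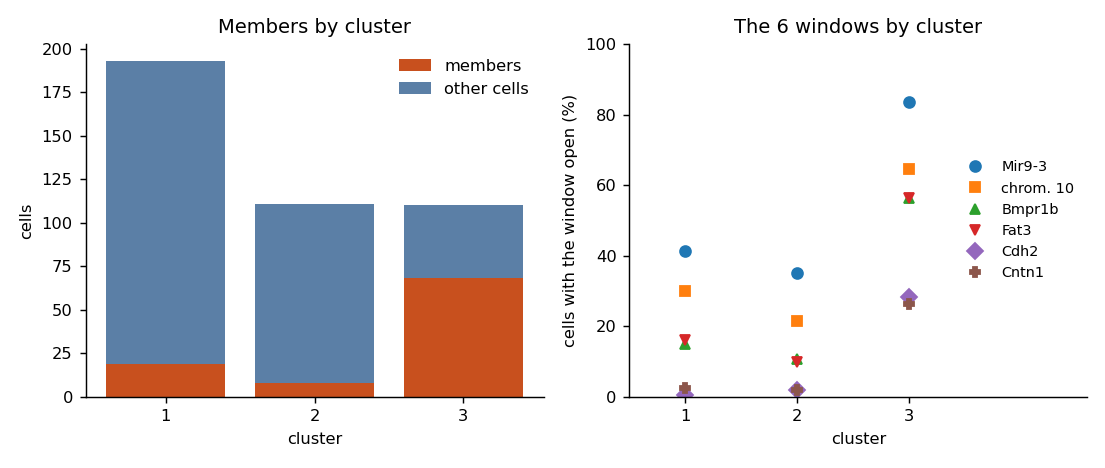
Left, number of members and other cells in each of 3 clusters made on chromosomes without a window; right, share of each cluster's cells with each of the 6 windows open, in percent. Cluster 3 holds 68 of its 110 cells as members and has all 6 windows at their highest share, from 26.4% at Cntn1 to 83.6% at Mir9-3.

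Within cluster 3, few regions away from the windows were called between members and the 42 other cells. Of the 16416 regions, 13 (0.0792%) were higher and 18 (0.11%) lower in members than in those 42 cells, although at the set regions, which chose them, members had 2.42 times the depth-scaled openness. Against all cells of cluster 1, the same 68 members were higher at 5.19% of regions and lower at 2.39%, and against cluster 2 at 9.47% and 7.54%. The clusters were made from these regions, so the last 4 counts are a description. Group sizes differ between these comparisons, smaller groups give fewer calls, and few calls do not show that the cells were alike.

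Scores and calls read the same regions that made the clusters, so their values by cluster are a description. The median score was 1.91 in the 68 members of cluster 3, 1.03 in the 19 of cluster 1 and 1.09 in the 8 of cluster 2. Those in cluster 1 were shallow, with a median of 2509 open regions and 2 open windows, while those in cluster 2 had 4374 and 3.5. At the regions higher in members, the 42 other cells of cluster 3 held 1.48 times the expected openness, those of cluster 1 0.633 times and those of cluster 2 0.359 times. At the regions lower in members, the other cells of cluster 2 held 2.26 times the expected openness, those of cluster 1 0.759 times and those of cluster 3 0.680 times. Members held 0.923 times the expected openness there in cluster 2, 0.374 times in cluster 1 and 0.249 times in cluster 3. The 8 members in cluster 2 were thus near the expected openness at these regions, though below the other cells of that cluster.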

How the data were processed

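The authors deposited 1 table of signal per region and cell, a whole number for each of 23180 regions in 415 cells, each cell a sample. Per the submitters' processing notes, MACS2 and mm9 were used. For the aligner, counting tool, duplicate treatment and choice of regions, nothing is given in the sources used here. Of values above 0, 37.6% equal 148 and 51.1% are multiples of 74, so the values were read as aligned bases, with 148 as 1 read pair. Every region was open in at least 31 cells (7.47%).

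Expected openness was 1 − exp(−region rate × cell rate), fitted to all regions and cells. The comparison was tested on simulated data, where most differences placed at the 2-fold limit went uncalled. Intervals are Clopper-Pearson, at 95%. Clusters used TF-IDF (scale 10000), singular value components 2 to 10 and k-means (3 clusters, 50 starts) on 414 cells with at least 1000 fragments (Python 3.11.15, scikit-learn 1.9.0, scipy 1.17.1). Thinning to 1500 open regions left out 33 cells. No doublet caller was run. Lower title numbers are 1 to 208 and higher ones 209 to 415.

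Regions named were all set regions and, on chromosomes without a window, the 10 higher ones with the largest ratio, the 5 open in most members, the 5 lower ones with the smallest ratio (those open in 0 members ranked by their bound) and the 3 stretches with most higher regions (ties by shortest span). Members and lists were chosen with earlier results of these data known. Planned gene lists of neural, endodermal, pluripotent and other markers need an annotation of mm9 and were not run.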

Additional observations from a re-analysis of the deposited data

How the results depend on the processing

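The 28 regions named on the chromosomes without a window kept their direction under 6 alternatives each. They were picked from the same cells that the alternatives re-read. Their kept direction was therefore largely fixed by the choice and is a description. In 150 of these checks the ratio stayed within its counting interval, and in 18 it moved outside without crossing 1. In 9 of the checks, over 5 of the higher regions, the ratio was under 2-fold, between 1.51 and 1.96. The 95 members became 47 and 26 with a set share of at least 1.5 and 2 times, and were 56 (26.9%) of cells no shallower than the median. After thinning, 79 cells met the rule and 55 of them were members. Higher and lower regions, 5.26% and 2.01% of those compared, became 3.47% and 0.859% at 1.5 times, 1.67% and 0.0975% at 2 times, 3.41% and 0.993% when open meant at least 1 read pair, 1.35% and 0.189% in thinned cells, and 1.63% and 0.439% among higher title numbers. With 3-fold required, 2.17% were higher. With observed shares 0.944% were lower, and at or above the median depth 1.19% were. Higher regions made up 55.97% of the calls at 3-fold and 94.5% at 2 times. The left-out Mir9-3 window had a ratio of 2.56 after thinning. The cluster with most members held 90.5% of members and 67.4% of the other cells with 2 clusters, 55.8% and 7.52% with 4, and 52.6% and 28.8% with the first component kept. Leaving each window out of the rule, requiring 3 set regions, or leaving out the 5% of cells with most open regions (chosen after seeing the data) kept member and region counts within 1.5 times. The lists themselves changed more. With a window left out, 82.8% to 92.5% of the higher regions and 52.7% to 73.3% of the lower ones were also on the main lists. At a set share of at least 2 times, 71.2% of the higher regions and 0 of 16 lower ones were. Where a value moved, the cause was not tested. No paired analysis was possible because there is 1 group of cells.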
